A study of Mus musculus with 4 samples.

Results

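Follicular helper T (Tfh) cells support germinal centre B cells in making antibody. Here 37 genes of the lysosome were followed in Tfh cells of wild-type (WT) and Apoe-/- mice. Apoe encodes apolipoprotein E, a carrier of plasma lipid, and mice without it develop high cholesterol and atherosclerosis. The genes were chosen by symbol for what they encode: 10 proteases and their processing enzymes, 6 glycosidases, 7 proteins of lipid handling or their cofactors, 4 membrane proteins, 8 subunits of the proton pump and 2 transcription factors. All 37 were among the 23997 genes of the table, and all 37 reached the mean of 1 FPKM (fragments scaled to transcript length and to the size of the library) that the test required. There were 2 libraries per genotype, from 13-week-old C57BL/6 mice, wild type or Apoe-/-, and the cells came from spleens and lymph nodes of both groups. The labels name no other allele or treatment, and give neither the sort of the cells nor whether a library is a single animal or a pool. The p-values therefore rest on library-to-library spread alone, and this may be technical.

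Lysosomes are acidic organelles in which proteins, sugars and lipids taken up from outside or delivered by autophagy are broken down. A rotary proton pump, the vacuolar ATPase, uses ATP to acidify them. It has a membrane sector, V0, through which protons pass, and a cytosolic sector, V1, which splits ATP. Cholesterol from lipoproteins is freed in the lysosome by the acid lipase Lipa and leaves through Npc2 and Npc1. The transcription factors Tfeb and Tfe3 can switch on many lysosomal genes together, through a DNA element built around CACGTG.

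FPKM totals ranged from 522371 to 551289 over the 4 libraries, and the read depth is not known. Apoe was at 145 and 128 FPKM in WT and at 5.09 and 5.21 FPKM in Apoe-/- libraries, a log2 difference of -4.48 ± 0.11 (SE; adjusted p = 0.000315), as the labels require. T and Tfh cell markers were present in every library, with a summed level of 2991 to 3164 FPKM over 12 genes, of which 0 passed by limma (2 higher and 2 lower at an unadjusted p under 0.05). Other cell types were also seen in these bulk libraries, where fewer cells of a type and less RNA per cell cannot be told apart. The 12 B cell markers summed to 369 and 365 FPKM in WT and to 239 and 232 FPKM in Apoe-/- libraries, and 4 of them were called lower, among them Fcer2a and Cd22, where 0.885% of all 11187 tested genes were. The 17 macrophage and monocyte markers summed to 279 and 253 FPKM in WT and to 362 and 325 FPKM in Apoe-/- libraries. Vsig4 was called higher (0.948% of all tested genes were). Of these 17 markers 14 had a difference above 0 and 3 below. Genotypes did not overlap for 10 on the higher side (58.8%, against 27.5% of all tested genes). Emr1 and Marco were the 2 without overlap on the lower side (11.8%, against 22.9%). The sums of 11 dendritic cell markers were 22.0 and 21.3 FPKM in WT against 33.9 and 37.9 FPKM, with Itgax called higher among the 8 tested. Those of 12 neutrophil markers were 9.38 and 7.89 against 51.1 and 68.0 FPKM. All 4 tested neutrophil markers were called higher, S100a8, S100a9 and Retnlg among them, and the other 8 were under the required mean of 1 FPKM. Retnlg (0.124 and 0.297 against 3.67 and 4.80 FPKM) reached that mean only through the Apoe-/- libraries. The same held for Vsig4 (0.148 and 0 against 2.25 and 4.72 FPKM), so the filter itself favoured a higher call for both. Among the dendritic cell markers, Clec10a and Zbtb46 (WT means of 0.394 and 0.949 FPKM) also passed only through the Apoe-/- libraries. The filter thus also favoured a higher median for that list. The neutrophil granule genes Elane and Camp were listed at 0 in every library, and Mpo in 3. CD8 T and NK cell markers (10 genes) summed to 23.9 and 24.4 against 32.8 and 41.7 FPKM with 0 of 8 tested genes passing by limma (4 higher at an unadjusted p under 0.05). Sums of the 6 plasma cell genes (58.1 and 64.4 against 61.5 and 62.0 FPKM, with Igj called higher and the other 3 tested genes below 0, for a median difference of -0.30), 8 erythroid genes (11.3 to 33.2 FPKM), 6 platelet genes (4.70 to 5.82 FPKM) and 8 stromal and endothelial genes (51.9 to 55.4 FPKM, nearly all from Pecam1) completed the markers examined. Of the last 3 lists 0 tested genes passed by limma (3 erythroid, 1 platelet and 1 stromal gene tested, with 2 erythroid genes lower at an unadjusted p under 0.05). The highest erythroid sum, that of Apoe-/- replicate 1, held 20.8 FPKM of Hbb-bs, which was at 0.0168 FPKM or less in every other library. Hbb-bs passed the filter only through that library.

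Of the 37 lysosomal genes, 1 fell in Apoe-/- Tfh cells and 0 rose at an adjusted p under 0.05 by limma with Benjamini-Hochberg adjustment, where 1.83% of all tested genes were called in either direction. The gene that fell was Gla. At an unadjusted p under 0.05, 4 members were higher (10.8%, against 11.6% of all tested genes) and 3 lower (8.11%, against 8.27%), close to the background. Genotypes did not overlap for 10 members on the higher side (27.0%, against 27.5% of all tested genes) and for 12 on the lower side (32.4%, against 22.9%), where 50.4% of all tested genes did not overlap in either direction. The median log2 difference over the members was 0.02, with 0.01 within the libraries numbered 1 and 0.03 within those numbered 2, beside a median of 0.00029 over all tested genes. It was -0.023 without WT replicate 2 and -0.0093 without Apoe-/- replicate 2. Summed over the 37 genes, the level was nearly equal in the 4 libraries: 2287 and 2273 FPKM in WT, 2285 and 2306 FPKM in Apoe-/-. The groups within this sum were not equal, as the plot of summed levels shows. Proteases summed to 795 and 803 FPKM in WT and to 856 and 871 FPKM in Apoe-/- libraries, and the pump subunits to 643 and 615 FPKM against 567 and 563 FPKM. Glycosidases summed to 144 and 142 against 129 and 122 FPKM, and lipid handling and cofactors to 482 and 483 against 523 and 533 FPKM. In none of these groups did the genotypes overlap, and the same held for 50.4% of all tested genes taken singly. The lower glycosidase sums lay largely in Gla, with 35.7 and 40.1 FPKM for WT against 18.5 and 20.6 FPKM for Apoe-/- libraries. Of the 6 glycosidases 4 were above 0 and 2 below, for a median difference of 0.02. Sums of membrane proteins and of transcription factors overlapped. As 2 libraries against 2 cannot give a permutation p below 0.333, these sums were not tested.

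**Figure D1:**
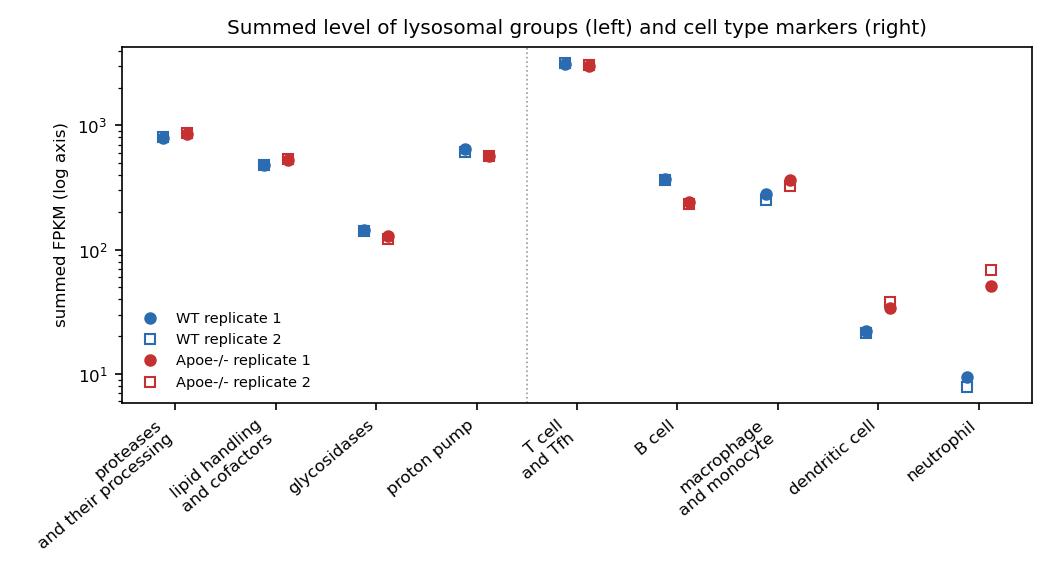
Summed FPKM (log axis) of 4 groups of lysosomal genes and of 5 lists of cell type markers by library. Colour gives the genotype (blue WT, red Apoe-/-) and shape the replicate (circle 1, square 2). Pump subunits sum to 643 and 615 FPKM in WT and to 567 and 563 FPKM in Apoe-/- libraries. Sums of B cell markers are lower, and those of macrophage, dendritic cell and neutrophil markers higher, in Apoe-/- libraries.

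Levels per kilobase differed widely among the members, as the plot of levels by library shows. Psap, which encodes the precursor of the saposins that help enzymes reach sphingolipids, was highest at a mean of 305 FPKM over the 4 libraries. It was followed by the cysteine protease Ctsb at 195 FPKM. The tetraspanin Cd63, a widely used marker of late endosomes, was lowest, with 1.52 and 0.955 FPKM in WT and 1.57 and 1.59 FPKM in Apoe-/- libraries. It was the member closest to the filter, and 36 of the 37 remained testable when a mean of 5 FPKM was required.

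**Figure D2:**
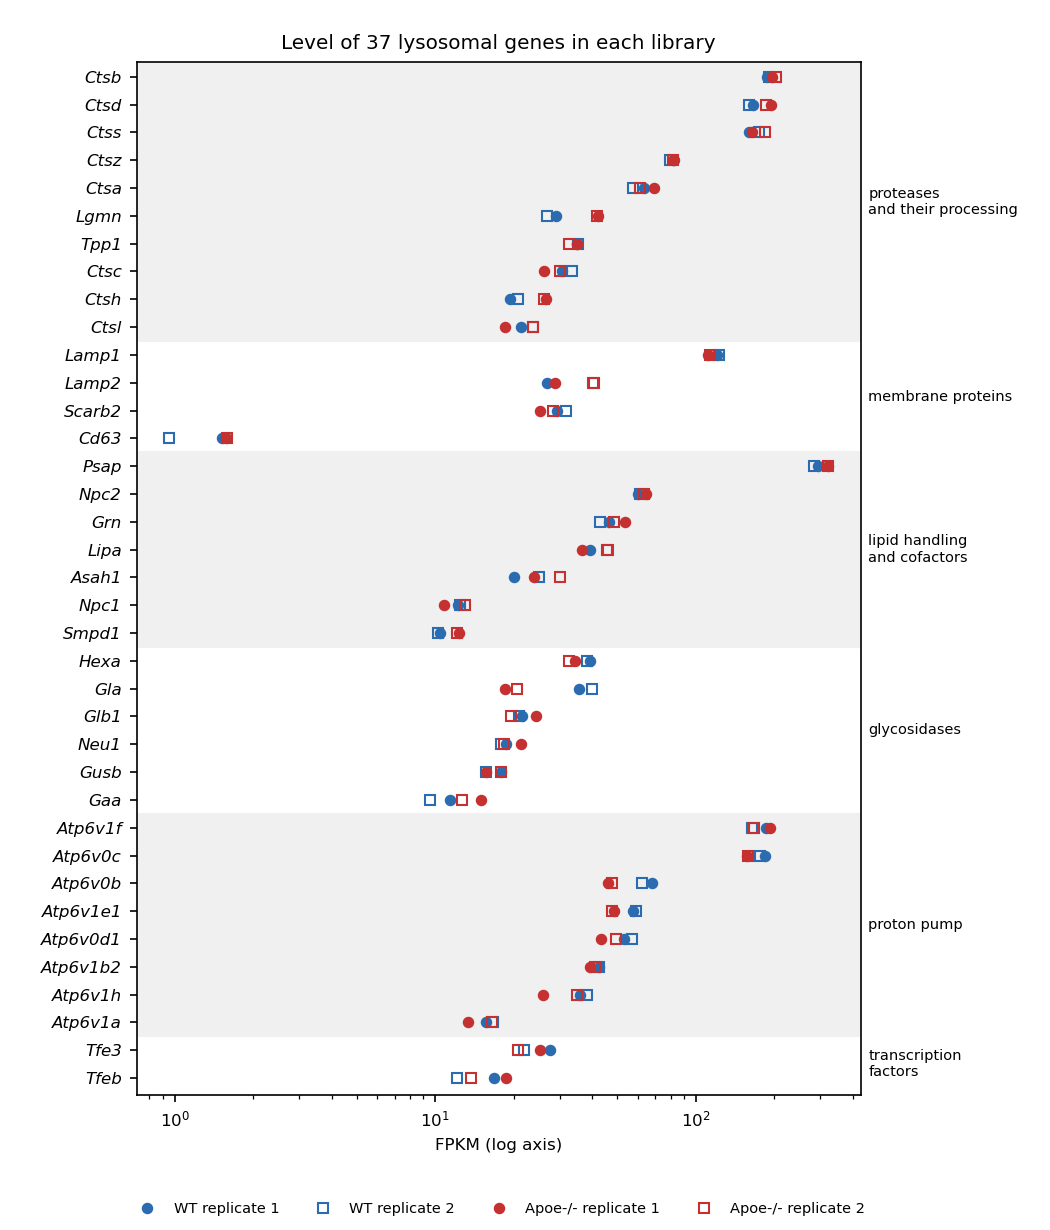
FPKM (log axis) of each of the 37 lysosomal genes in each library, grouped by role and ordered by mean level within a role. Blue marks are WT and red marks Apoe-/- libraries, circles replicate 1 and squares replicate 2; only for Gla, at 35.7 and 40.1 FPKM in WT against 18.5 and 20.6 FPKM, was the difference called.

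Gla encodes alpha-galactosidase A, which removes terminal galactose from glycolipids and whose loss causes Fabry disease. It was at 35.7 and 40.1 FPKM in WT and at 18.5 and 20.6 FPKM in Apoe-/- libraries. Every WT library was thus well above both Apoe-/- libraries, with means of 37.9 ± 3.11 and 19.5 ± 1.52 FPKM (SD, n = 2 each). Gla fell 1.94-fold, a log2 difference of -0.92 ± 0.12 SE (limma adjusted p = 0.0350). On the log2 scale it fell by 0.92 within the libraries numbered 1 and by 0.93 within those numbered 2. The call ended with no filter on low values (adjusted p = 0.0725) and on leaving out either WT library (0.0569 for replicate 1, 0.116 for replicate 2), over a range of 0.00117 to 0.116 in the 12 alternatives. The difference was -0.84 or further from 0 in all 12. Beside this, the median difference was -0.69 for B cell markers, 0.38 for macrophage and monocyte markers and 0.73 for dendritic cell markers. The part of these cells in the fall of Gla was not tested.

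Gla lies on the minus strand of chromosome X at 134588169 to 134601005 (GRCm38, the assembly also called mm10), and the 4 tested genes next to it had differences closer to 0. Rpl36a, a ribosomal protein gene whose end lies 106 bases from that of Gla, was at 848 and 866 FPKM in WT and at 1016 and 1025 FPKM in Apoe-/- libraries (log2 difference 0.25 ± 0.07 SE, adjusted p = 0.145). Hnrnph2, an RNA-binding protein gene that starts 174 bases from the start of Gla and is read the other way, was at 44.4 and 54.9 FPKM in WT and at 40.5 and 50.2 FPKM in Apoe-/- libraries (-0.13 ± 0.16, adjusted p = 0.694). The genotypes thus overlapped for Hnrnph2. Btk, a kinase of B cell receptor signaling that lies 4540 bases away, was at 7.09 and 7.03 FPKM against 5.88 and 5.96 FPKM (-0.22 ± 0.11, adjusted p = 0.344), and Timm8a1, a mitochondrial import gene, at 13.0 and 17.7 against 8.84 and 12.8 FPKM (-0.48 ± 0.22, adjusted p = 0.303). Whether these differences differ from that of Gla was not tested.

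**Figure D3:**
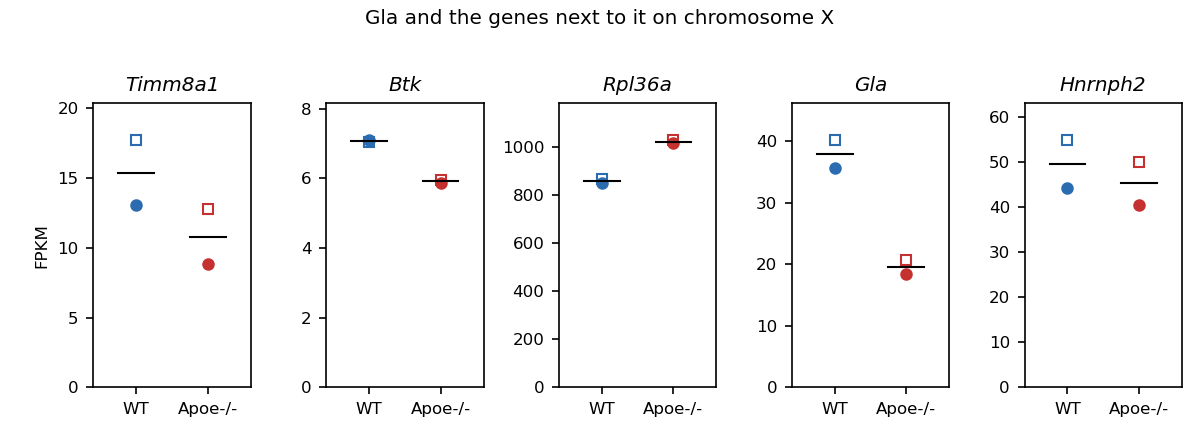
FPKM of Gla and of 4 genes next to it on chromosome X, each panel with its own axis from 0. WT libraries are blue, Apoe-/- libraries red, circles replicate 1, squares replicate 2 and lines group means; the means of Gla are 37.9 and 19.5 FPKM, those of Hnrnph2 49.6 and 45.3 FPKM.

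The upstream sequences of Gla and of 3 further members are shown because they hold the CACGTG core that Tfeb and Tfe3 are known to bind, and were picked after their differences were seen. Of these 4 genes only Gla passed the test. Lgmn had the largest positive difference of the members, Ctsd a positive one and Atp6v0b the most negative one of the pump subunits, none of them called. Each is 250 bases ending at an annotated RefSeq start site (GRCm38.p6), printed 5′ to 3′ with CACGTG in capitals. All 4 are on the minus strand, at chrX:134601006-134601255 for Gla, chr12:102439093-102439342 for the second of 2 annotated Lgmn starts (the first holds no match), chr4:117887330-117887579 for Atp6v0b and chr7:142387828-142388077 for Ctsd.
Gla: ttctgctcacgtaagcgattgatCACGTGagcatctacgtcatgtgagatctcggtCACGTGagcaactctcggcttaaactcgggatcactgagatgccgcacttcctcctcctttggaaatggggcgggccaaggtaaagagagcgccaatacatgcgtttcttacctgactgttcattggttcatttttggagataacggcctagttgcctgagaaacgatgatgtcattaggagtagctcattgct
Lgmn: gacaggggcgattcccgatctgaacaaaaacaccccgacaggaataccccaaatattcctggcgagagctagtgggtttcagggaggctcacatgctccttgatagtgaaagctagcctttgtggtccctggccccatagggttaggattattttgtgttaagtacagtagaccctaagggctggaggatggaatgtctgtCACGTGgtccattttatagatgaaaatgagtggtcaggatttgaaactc
Atp6v0b: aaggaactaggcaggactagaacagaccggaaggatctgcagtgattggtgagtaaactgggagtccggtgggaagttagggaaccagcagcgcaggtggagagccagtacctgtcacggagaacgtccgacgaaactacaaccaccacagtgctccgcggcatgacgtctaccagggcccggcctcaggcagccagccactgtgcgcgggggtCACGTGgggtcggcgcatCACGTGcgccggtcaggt
Ctsd: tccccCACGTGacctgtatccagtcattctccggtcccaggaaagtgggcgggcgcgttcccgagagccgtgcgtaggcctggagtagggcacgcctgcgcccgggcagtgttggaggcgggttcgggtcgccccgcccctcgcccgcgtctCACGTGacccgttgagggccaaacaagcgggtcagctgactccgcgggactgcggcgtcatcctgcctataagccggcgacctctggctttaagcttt

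The Gla stretch holds the core 2 times, starting 227 and 194 bases upstream of the start, and both are part of the longer palindrome TCACGTGA. As Hnrnph2 starts 174 bases from the start of Gla, both matches lie past its start, within the annotated Hnrnph2 gene, and not in the stretch between the 2 starts. Atp6v0b has it 36 and 18 bases upstream, Ctsd 245 and 98 bases upstream, and Lgmn 49 bases upstream of its second start. Promoter windows of 300 bases (250 before the start and 50 after) were at hand for 31 of the 37 members, with none for Asah1, Atp6v1b2, Atp6v1h, Ctsb, Ctsh and Npc1. CACGTG, which reads the same on both strands, was in a window of 11 of these 31 genes (35.5%), against 12.1% of 8476 tested genes and 8.09% of all 27025 genes with a window. TCACGTGA, which contains it, was in 5 of 31 (16.1%), namely Atp6v0d1, Atp6v1a, Ctsa, Ctsd and Gla, against 2.44% and 1.12%. The full consensus of the CLEAR element, which extends this palindrome, was in 0 of 31, against 0.932% and 0.370%. A gene counted if any of its windows held a match, and the 31 members had 39 windows. Neither base composition nor the number of windows per gene was matched, and a match is a description of the letters, not of binding. Of the 11 members with CACGTG, 5 had a difference above 0 and 6 below, and of the 20 without it 12 were above and 8 below.

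The other glycosidases did not pass. Gaa, the acid alpha-glucosidase that degrades glycogen, was at 11.3 and 9.54 FPKM in WT and at 15.0 and 12.7 FPKM in Apoe-/- libraries (log2 difference 0.38 ± 0.14 SE, adjusted p = 0.231). Hexa, a subunit of beta-hexosaminidase, which acts on gangliosides, was at 39.4 and 38.2 FPKM against 34.3 and 32.5 FPKM (-0.21 ± 0.10, adjusted p = 0.315). In both genes the genotypes did not overlap, Gaa being higher and Hexa lower in Apoe-/- libraries. With Gla, this made 2 of 6 glycosidases without overlap on the lower side (33.3%, against 22.9% of all tested genes). On the higher side it was 1 of 6 (16.7%, against 27.5%). The beta-galactosidase Glb1, the beta-glucuronidase Gusb and the sialidase Neu1 overlapped between genotypes, with log2 differences of 0.04, 0.00487 and 0.11. Those of Glb1 and Gusb turned sign when libraries were rescaled to equal FPKM totals. The group had a median of 0.02, which turned to -0.02 with that rescaling. Leaving out WT replicate 2 turned it to -0.03 and leaving out Apoe-/- replicate 1 to -0.05, while it was 0.08 with WT replicate 1 left out and 0.05 with Apoe-/- replicate 2 left out.

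Among the 10 proteases and processing enzymes, 0 passed by limma, with 3 higher and 0 lower at an unadjusted p under 0.05. Genotypes did not overlap for 4 genes that were higher in Apoe-/- libraries (27.5% of all tested genes) and for 2 that were lower (22.9% of all tested genes). Lgmn, the asparagine-specific endopeptidase legumain, which trims cathepsins and antigens, came closest to the threshold. It was at 29.2 and 26.9 FPKM in WT and at 42.3 and 41.7 FPKM in Apoe-/- libraries (log2 difference 0.57 ± 0.10 SE, adjusted p = 0.0713), with differences of 0.52 for number 1 and 0.62 for number 2. Ctsh, a cathepsin with aminopeptidase activity, was at 19.3 and 20.9 FPKM against 26.7 and 26.2 FPKM (0.38 ± 0.10, adjusted p = 0.138), again without overlap. The aspartic protease Ctsd was at 166 and 159.9 FPKM against 195 and 186 FPKM (0.22 ± 0.09, adjusted p = 0.237). These 3 are also abundant in macrophages and other antigen-presenting cells, whose markers differed in the same libraries, in both directions. Median differences were 0.38 for macrophages and monocytes, 0.73 for dendritic cells and -0.69 for B cells, and the part of those cells was not tested.

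Other proteases were closer to equal or lower. Ctsb was at 188 and 191 FPKM in WT and at 196 and 203 FPKM in Apoe-/- libraries, and Ctss, the cysteine protease that removes the invariant chain from MHC class II, at 160.3 and 174 against 165 and 185 FPKM, with overlap. Ctsc, which activates granule proteases of cytotoxic cells and neutrophils, was at 30.7 and 33.3 FPKM against 26.1 and 30.2 FPKM (-0.18 ± 0.12 SE, adjusted p = 0.452). Thus both WT libraries lay above both Apoe-/- libraries for Ctsc, and the same held for the tripeptidyl peptidase Tpp1, by a smaller margin (-0.06 ± 0.10, adjusted p = 0.794). Ctsl and Ctsz had log2 differences of -0.10 and 0.02 and overlapped between genotypes, and that of Ctsz turned sign with libraries rescaled to equal totals. Ctsa, the carboxypeptidase that protects Glb1 and Neu1, was at 63.4 and 57.6 FPKM against 68.8 and 60.8 FPKM. It overlaps by 1515 bases with Pltp, a phospholipid transfer protein gene named here after its values were seen, which was called higher (5.56 and 14.6 FPKM on average, adjusted p = 0.0198). No strand setting is given in the sources used here, so reads of the shared stretch cannot be assigned to either gene. The same limit holds for the other members that overlap a gene: Glb1 with Tmppe by 10107 bases, Asah1 with Frg1 by 8464, Ctsb with Fdft1 by 774, Ctsa also with Neurl2 by 725 and Ctsz with Nelfcd by 12.

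In the group of lipid handling and cofactors, 0 of 7 genes passed by limma, also at an unadjusted p under 0.05. Psap was at 293 and 285 FPKM in WT and at 322 and 320.3 FPKM in Apoe-/- libraries (log2 difference 0.15 ± 0.08 SE, adjusted p = 0.358). Smpd1, the acid sphingomyelinase, was at 10.4 and 10.2 FPKM against 12.3 and 12.1 FPKM (0.22 ± 0.11, adjusted p = 0.324), and Grn, the precursor of the granulins, at 46.4 and 42.8 against 53.3 and 48.5 FPKM (0.19 ± 0.11, adjusted p = 0.400). In each of these and in Npc2 both Apoe-/- libraries were above both WT libraries. This made 4 of 7 genes without overlap on the higher side (57.1%, against 27.5%) and 0 on the lower side (against 22.9%). The median difference of the group was 0.15, with 0.13 and 0.17 within numbers 1 and 2. It was 0.10 without WT replicate 1 and 0.09 without Apoe-/- replicate 2. Macrophage and monocyte markers had a median of 0.38 and B cell markers one of -0.69, and the part of these cells was not tested.

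The genes that release and export cholesterol from lysosomes showed small differences. Lipa was at 39.3 and 46.2 FPKM in WT and at 36.6 and 45.7 FPKM in Apoe-/- libraries (log2 difference -0.06 ± 0.15 SE, adjusted p = 0.860). Npc1, the membrane exporter, was at 12.3 and 12.5 FPKM against 10.8 and 13.0 FPKM (-0.06 ± 0.13, adjusted p = 0.839), and Npc2, its soluble partner, at 59.9 and 61.2 against 64.2 and 63.3 FPKM (0.07 ± 0.09, adjusted p = 0.696). Genotypes overlapped for Lipa and Npc1 and not for Npc2. A p above the threshold does not show equality. Asah1, the acid ceramidase, was at 20.1 and 25.1 against 24.0 and 30.2 FPKM, with the libraries numbered 2 above those numbered 1 in each genotype.

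Membrane proteins of the lysosome did not pass either (0 of 4 by limma, and 0 at an unadjusted p under 0.05). Lamp1, the most abundant of them, was at 121 and 122 FPKM in WT and at 111 and 113 FPKM in Apoe-/- libraries (log2 difference -0.11 ± 0.09 SE, adjusted p = 0.513). Scarb2, the receptor that carries beta-glucocerebrosidase to lysosomes, was at 29.2 and 31.9 against 25.3 and 28.2 FPKM (-0.18 ± 0.11, adjusted p = 0.426). Both were lower in Apoe-/- libraries without overlap, which made 2 of 4 genes (50%, against 22.9% of all tested genes). On the higher side it was 1 of 4 (25%, against 27.5%). Lamp2, which also serves chaperone-mediated autophagy, followed the replicate number instead: it was at 26.9 and 28.8 FPKM in the libraries numbered 1 of WT and Apoe-/- mice and at 40.3 and 40.7 FPKM in those numbered 2.

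Such a split by number was seen in further members. Both libraries numbered 1 were above both numbered 2 for 7 of 37 genes (13.5% of all tested genes), among them Tfeb and Tfe3, and below them for another 7 (28.2% of all tested genes), among them Lamp2, Lipa, Npc1 and Asah1. The labels do not tie a number to an animal or a day. Tfeb was at 16.8 and 12.1 FPKM in WT and at 18.6 and 13.7 FPKM in Apoe-/- libraries, a log2 difference of 0.15 ± 0.21 (SE; adjusted p = 0.722). Tfe3 was at 27.5 and 21.9 against 25.2 and 20.8 FPKM (-0.10 ± 0.16, adjusted p = 0.775). For both factors the libraries numbered 1 and 2 differed more than the genotypes.

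**Figure D4:**
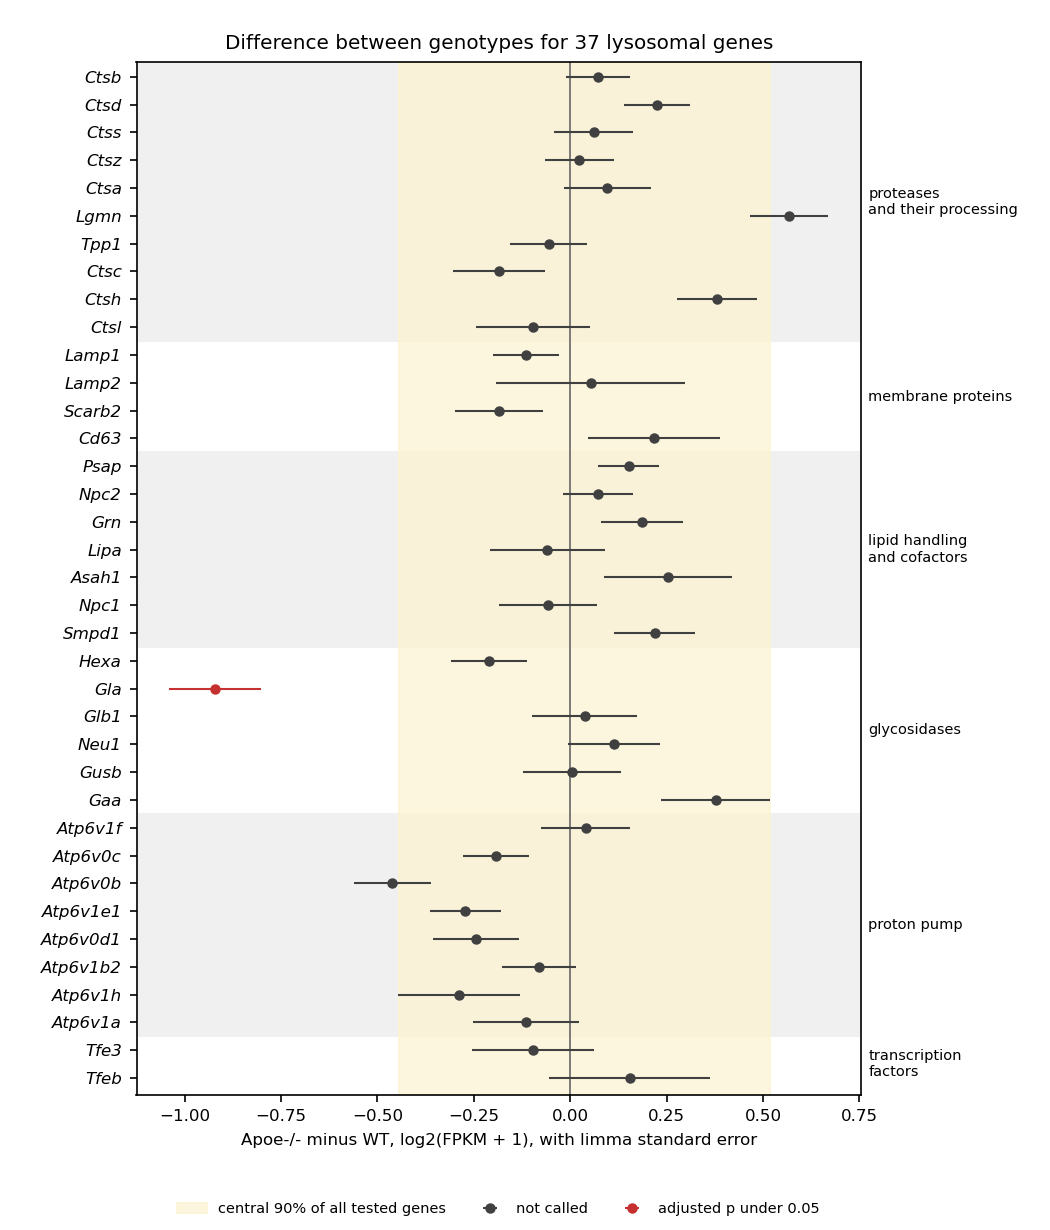
Apoe-/- minus WT difference in log2(FPKM + 1) for each of the 37 lysosomal genes, grouped by role, with limma's standard error as bars. The shaded range holds the central 90% of all tested genes; Gla, at -0.92, is the called gene (red), Lgmn lies above the shaded range at 0.57 and Atp6v0b just below it at -0.46, and 7 of 8 pump subunits lie below 0.

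Among the groups of members, the proton pump lay most to one side. Of its 8 subunits 7 had a difference below 0, where 50.0% of all tested genes did, and for 6 of them both Apoe-/- libraries were below both WT libraries (75.0%, against 22.9%). The median difference was -0.22, with -0.23 within the libraries numbered 1 and -0.14 within those numbered 2, and over the alternatives it ranged from -0.27 to -0.12, the latter without Apoe-/- replicate 1. None of the 8 passed by limma (0 higher and 2 lower at an unadjusted p under 0.05), so no subunit is called. Median differences of markers in the same libraries were -0.69 for B cells, 0.38 for macrophages and monocytes and 0.73 for dendritic cells. The part of these cells here was not tested.

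In the membrane sector V0, Atp6v0b, a subunit of the proton-carrying ring, was at 67.9 and 62.1 FPKM in WT and at 46.2 and 47.6 FPKM in Apoe-/- libraries. Its Apoe-/- mean was thus 1.39-fold lower (log2 difference -0.46 ± 0.10 SE, adjusted p = 0.0962), with differences of -0.54 for number 1 and -0.38 for number 2. Atp6v0c, the main subunit of that ring, was at 185 and 176 against 157 and 158 FPKM (-0.19 ± 0.09, adjusted p = 0.291). Atp6v0d1, which couples the ring to the central stalk, was at 53.0 and 56.7 against 43.2 and 49.2 FPKM (-0.25 ± 0.11, adjusted p = 0.301). For all 3 V0 members both Apoe-/- libraries were below both WT libraries, as for 22.9% of all tested genes.

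In the cytosolic sector V1, the stalk subunit Atp6v1e1 was at 57.4 and 59.1 FPKM in WT and at 48.6 and 47.5 FPKM in Apoe-/- libraries (log2 difference -0.27 ± 0.09 SE, adjusted p = 0.201). The regulatory subunit Atp6v1h was at 35.8 and 38.2 against 26.0 and 34.9 FPKM (-0.29 ± 0.16, adjusted p = 0.386), so that Apoe-/- replicate 1 carried most of its difference. Of the subunits that bind nucleotide, Atp6v1b2 was at 42.6 and 42.4 against 39.2 and 41.0 FPKM (-0.08 ± 0.10, adjusted p = 0.679) and Atp6v1a at 15.7 and 16.7 against 13.3 and 16.6 FPKM (-0.12 ± 0.14, adjusted p = 0.683). Atp6v1f, a subunit of the rotor, was the exception, at 186 and 164 against 193 and 168 FPKM (0.04 ± 0.12, adjusted p = 0.878), and its difference turned to -0.0076 with libraries rescaled to equal totals.

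Of 17 further genes of the pump and its accessory proteins, 10 were tested and 0 passed by limma (2 higher and 0 lower at an unadjusted p under 0.05). Of these 10 genes 8 were below 0 (80%, against 50.0% of all tested genes), with a median of -0.10. Without 1 library this was -0.16 (WT replicate 1), -0.05 (WT replicate 2 or Apoe-/- replicate 1) and -0.18 (Apoe-/- replicate 2). The 2 above 0 were Tcirg1, the V0 subunit a3 that is prominent in osteoclasts and immune cells, at 48.1 and 39.5 FPKM in WT against 56.1 and 54.3 FPKM (log2 difference 0.33, adjusted p = 0.231), and Atp6v1g2, at 3.76 and 3.93 against 6.23 and 4.82 FPKM (0.42, adjusted p = 0.212). Tcirg1 is named here after its values were seen. Of the 10 tested further genes, 4 had no overlap on the lower side (40%, against 22.9% of all tested genes). On the higher side it was 2 (20%, against 27.5%). Members and further genes together gave 15 of 18 tested below 0 (83.3%, against 50.0%). Of these 18 genes 10 had no overlap on the lower side (55.6%, against 22.9%) and 2 on the higher side (11.1%, against 27.5%). The tissue-restricted subunit genes Atp6v0a4, Atp6v1b1 and Atp6v1c2 stayed under 1 FPKM in all 4 libraries, and Atp6v1e2 was listed at 0.

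**Figure D5:**
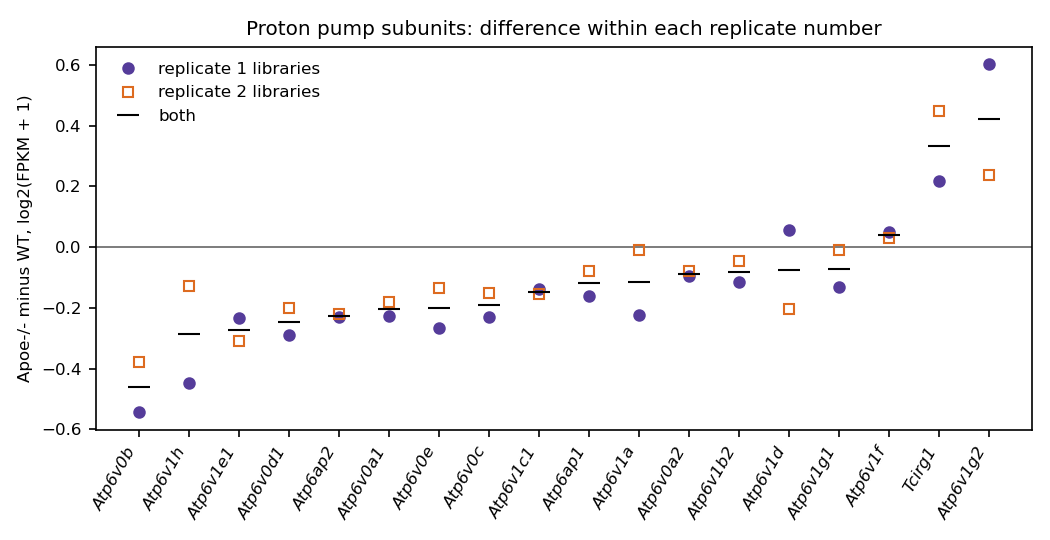
Apoe-/- minus WT difference in log2(FPKM + 1) for the 18 tested proton pump genes, ordered by the fitted difference (black bars), with the difference between the libraries numbered 1 (circles) and between those numbered 2 (squares). Of these genes 15 have a fitted difference below 0, from -0.46 for Atp6v0b, and Tcirg1 and Atp6v1g2 lie above 0 within both numbers.

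Other lysosomal genes were taken from lists of the pathway. Of 36 tested further hydrolases and activators, 1 rose (2.78%, against 0.948% of all tested genes) and 0 fell (against 0.885%) by limma. Of these 36 genes 28 had a difference above 0 (77.8%, against 50.0% of all tested genes), with a median of 0.14. The gene that rose was Ctse, an aspartic protease of endosomes in immune cells, from 11.9 and 10.8 FPKM in WT to 22.4 and 21.6 FPKM in Apoe-/- libraries, 1.93-fold (log2 difference 0.90 ± 0.11 SE, adjusted p = 0.0325). Its call ended with no filter on low values (adjusted p = 0.0702) and on leaving out either WT library (0.0673 for replicate 1, 0.120 for replicate 2), over a range of 0.00179 to 0.120. Ctsw, a cathepsin of cytotoxic lymphocytes named after its values were seen, was at 12.8 and 10.8 against 20.5 and 22.7 FPKM (0.82, adjusted p = 0.0511), and CD8 T and NK cell markers had a median difference of 0.51 beside it, whose part was not tested.

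Of 30 tested further membrane proteins 0 passed by limma (6 higher and 2 lower at an unadjusted p under 0.05). Of these 30 genes 23 were above 0 (76.7%, against 50.0%), with a median of 0.17, and 16 had no overlap on the higher side (53.3%, against 27.5%). The one with the smallest adjusted p was Hgsnat, an enzyme of heparan sulfate breakdown, at 14.2 and 13.9 FPKM in WT and at 19.2 and 18.9 FPKM in Apoe-/- libraries (0.41 ± 0.10 SE, adjusted p = 0.119). Laptm5, a lysosomal protein of blood cells and the most abundant of that list and named after its values were seen, was at 679 and 614 against 673 and 602 FPKM. The median of the macrophage and monocyte markers was 0.38 and that of the B cell markers -0.69, and the part of these cells in these lists was not tested. Of 6 tested protease inhibitors 0 passed (2 higher at an unadjusted p under 0.05), with Serpina3g, a serpin of activated T cells, at 27.2 and 26.0 against 38.6 and 37.9 FPKM (adjusted p = 0.0814). Of 17 tested genes that control Tfeb and the growth kinase mTORC1 at the lysosome 0 passed (0 at an unadjusted p under 0.05). Among these 17, 11 were below 0 (64.7%, against 50.0% of all tested genes), with a median of -0.047. The smallest adjusted p was that of Rraga, a GTPase of amino acid sensing and 1 of the 6 above 0, at 29.9 and 32.0 against 35.1 and 41.9 FPKM (0.266).

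The members lie on 19 chromosomes. Of the 4 on chromosome 7, where Apoe lies, the closest, Ctsc, is 68.6 Mb from Apoe, and none of them was called.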

How the data were processed

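The authors' deposited table holds FPKM per gene symbol for 4 libraries, 1 column each. Tools named without order or settings, per the submitters' processing notes, were TopHat2 2.0.13, Cuffdiff 2.2.0 and CASAVA 1.8.2, with the mm10 build. The sources used here give no annotation, strand setting or filter, and no counts or depths were at hand, so counting error could not be computed. In 2 rows a space stood for a tab, and rows were split on white space.

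From these values log2(FPKM + 1) was computed for the 11187 genes with a mean of at least 1 FPKM. Genotypes were compared over all of them by limma 3.58.1 in R 4.3.3 (eBayes with a trend, two-sided), adjusted by Benjamini-Hochberg, with a call at an adjusted p under 0.05. Differences are Apoe-/- minus WT on this scale, which understates changes at low FPKM, and folds are ratios of mean FPKM. Members and lists were chosen with earlier results of these data known, so lists are described by counts and medians, beside those of all tested genes, with no list test. Every member is named. From each pathway list the called genes are named, or else that with the smallest adjusted p. Up to 3 called genes are named per marker list, and 1 gene that this rule selects is not reported here. Positions, promoters and symbols are RefSeq's (GRCm38.p6). Motifs were searched on both strands. Alternatives changed the pseudocount (0.1, 0.5), the filter (none, or a mean of 5 FPKM), the scaling, the variance trend and the replicate block, or left out each library in turn.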

Additional observations from a re-analysis of the deposited data

How the results depend on the processing

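The count of members that rose was 0 and of those that fell 1 (Gla), also with both other pseudocounts, a mean of 5 FPKM or more, both rescalings and no variance trend. With no filter on low values 0 members fell, and 35 of all genes were higher and 41 lower, against 106 and 99. With a mean of 5 FPKM or more 51 of all genes were higher. With 1 library left out, where the lone library is assumed to vary like the other group, 0 to 1 members fell, and 54 to 317 of all genes were higher and 61 to 301 lower. The fewest higher genes were found without WT replicate 2, the fewest lower ones without WT replicate 1, and the most without Apoe-/- replicate 2. The cause was not tested. The labels do not pair libraries. A replicate block on the number gave other counts. Of the 37 members 7 were higher and 8 lower, where 1908 of all 11187 tested genes were higher and 1776 lower. The correlation of the differences between numbers 1 and 2 in WT with those in Apoe-/- libraries was 0.214 across genes. The members' median ranged from -0.024 (libraries rescaled to equal totals) to 0.053, and that rescaling moved the median of all genes by -0.043. It turned the sign of Ctsz (-0.024), Glb1 (-0.0076), Gusb (-0.041) and Atp6v1f (-0.0076). With 1 library left out, log2 differences of uncalled members that turned sign ranged from -0.26 to 0.070 for Ctsl, -0.022 to 0.14 for Ctss, -0.23 to 0.34 for Lamp2, -0.22 to 0.097 for Lipa, -0.18 to 0.065 for Npc1, -0.11 to 0.19 for Glb1, -0.085 to 0.095 for Gusb, -0.26 to 0.031 for Atp6v1a, -0.061 to 0.14 for Atp6v1f, -0.067 to 0.38 for Tfeb and -0.25 to 0.060 for Tfe3. The other 26 members kept their sign with 1 library left out. Depth is unknown, so what it limits could not be stated.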

Other observations

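Genes of autophagy, which delivers cell contents to lysosomes, lay mostly below 0 in Apoe-/- Tfh cells. Of 23 tested genes 18 had a negative difference (78.3%, against 50.0% of all tested genes), 9 had no overlap between genotypes on the lower side (39.1%, against 22.9%), and the median was -0.10. None passed by limma (0 higher and 2 lower at an unadjusted p under 0.05). Atg7, the enzyme that activates the ubiquitin-like proteins of autophagosome formation, had the smallest adjusted p, at 14.0 and 13.9 FPKM in WT and 11.1 and 9.62 FPKM in Apoe-/- libraries (log2 difference -0.40, adjusted p = 0.156). Sqstm1, a cargo receptor named after its values were seen, was at 159.6 and 158 FPKM against 142 and 137 FPKM (adjusted p = 0.304). Over the alternatives the median of the list ranged from -0.14 (libraries rescaled to equal FPKM totals) to -0.059 (without WT replicate 2). Beside this, 11 of 12 B cell markers were lower without overlap, with a median of -0.69. Medians were 0.38 for macrophage and monocyte markers and 0.73 for dendritic cell markers. The part of these cells in the autophagy list was not tested.

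Of 20 genes that sort enzymes to lysosomes 0 passed by limma (0 higher and 1 lower at an unadjusted p under 0.05), with a median of -0.027 that turned to 0.012 without Apoe-/- replicate 1 and was -0.0017 without WT replicate 1 and -0.041 without Apoe-/- replicate 2. Gga2, an adaptor that carries mannose 6-phosphate receptors out of the Golgi, was at 5.96 and 6.23 FPKM in WT and at 3.79 and 3.62 FPKM in Apoe-/- libraries (log2 difference -0.59, adjusted p = 0.0838), with no overlap. The receptors themselves, M6pr and Igf2r, named after their values were seen, had log2 differences of -0.17 and -0.023.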
